A study of Mus musculus with 8 samples.

Results

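Complex I, the NADH dehydrogenase of the respiratory chain, takes electrons from NADH and pumps protons across the inner mitochondrial membrane. Most of its subunits are encoded in the nucleus, while the 7 examined here, mt-Nd1, mt-Nd2, mt-Nd3, mt-Nd4, mt-Nd4l, mt-Nd5 and mt-Nd6, are encoded in mitochondrial DNA (mtDNA) and form the core of the membrane arm. The heart depends on this pathway for most of its ATP, and mtDNA transcripts are very abundant in cardiomyocytes. The mtDNA is copied into long precursor RNAs from both strands, most of which are cut into single mRNAs, while mt-Nd4l and mt-Nd4 stay on 1 shared mRNA, as do mt-Atp8 and mt-Atp6. The 7 genes were taken by name from the 25929 genes listed, and mt-Nd3 and mt-Nd4l were chosen by their values in Fat1-TAC against WT-TAC, so that contrast is given for them as a description only.

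RNA-sequencing was done on hearts of mice in 4 groups of 2 libraries each. WT-Sham and WT-TAC were wild-type mice labelled C57BL/6 and named C57BL/6J in the paper. Fat1-Sham and Fat1-TAC were fat-1 transgenic mice carrying an omega-3 fatty acid desaturase of Caenorhabditis elegans, described in the methods as littermates of the wild-type mice. The promoter of the transgene is not given in the sources used here. Mice were 3 months old at surgery and had either transverse aortic constriction (TAC), a model of pressure overload studied after 8 weeks, or an open-chest sham operation. The labels describe the 2 libraries of a group as independent samples from ventricular tissue, whereas the methods name whole hearts. Levels are given as FPKM (fragments per kilobase of transcript per 1000000 mapped fragments), and each library held between 14163994 and 21218331 fragments.

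Libraries differed in other tissues before any mt-Nd gene was considered. All 10 cardiomyocyte markers were above 1 FPKM. Myh6, the adult myosin heavy chain, was at 7406 FPKM in WT-TAC1 and 12114 to 17694 FPKM in the others. Another of the markers, Myl2, was above Myh6 in WT-Sham1, Fat1-TAC1 and Fat1-TAC2. The 4 atrial markers (Nppa, Myl7, Myl4 and Sln) summed to 1023 and 3801 FPKM in WT-Sham, 2410 and 2427 FPKM in WT-TAC, 1252 FPKM in Fat1-Sham1, and 25.8, 52.7 and 35.7 FPKM in Fat1-Sham2, Fat1-TAC1 and Fat1-TAC2. Tissue labelled as ventricular thus carried high atrial transcripts in 5 of the 8 libraries.

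WT-TAC1 stood apart in other lists as well. The 6 thymocyte markers, led by Cd4, summed to 1193 FPKM in WT-TAC1 and to 0.582 to 1.89 FPKM in the other 7 libraries, of which each had at least 1 of the markers at 0. The 9 airway and epithelial markers, led by Bpifa1, summed to 1665 FPKM in WT-TAC1, 3958 FPKM in WT-TAC2, 52.5 FPKM in Fat1-Sham1 and at most 5.43 FPKM elsewhere. Both WT-TAC libraries therefore held RNA typical of tissue outside the heart. The 5 alveolar markers summed to 95.03 FPKM in WT-TAC1, 36.5 FPKM in Fat1-Sham1, 7.31 FPKM in WT-TAC2 and at most 0.552 FPKM elsewhere. The 5 skeletal muscle markers summed to 133 FPKM in WT-TAC1 and at most 6.70 FPKM elsewhere. The 5 B and plasma cell markers, led by Ighm, summed to 386 FPKM in WT-TAC1, 214 FPKM in WT-TAC2, 210.0 FPKM in Fat1-TAC2 and at most 9.77 FPKM elsewhere. Markers of cells found in and around the heart also moved with the groups. The 5 fibroblast markers summed to 974 and 965 FPKM in WT-TAC, 542 and 559 FPKM in Fat1-TAC, and 528 to 933 FPKM in the sham libraries. The 6 adipocyte markers, led by Fabp4, summed to 847 and 1175 FPKM in WT-TAC and to 257 to 510 FPKM in the other 6 libraries, and the 5 macrophage markers, led by Lyz2, to 509 and 394 FPKM in WT-TAC and to 230 to 322 FPKM elsewhere. The part of these tissues and cells in the results below was not tested.

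The mtDNA sequence of some members is also present in the nuclear genome, as insertions annotated as unprocessed pseudogenes. In the GENCODE M21 annotation of GRCm38, mt-Nd3 (ENSMUSG00000064360) lies at chrM:9459-9806 on the forward strand and its copy Gm28438 at chr1:24612775-24613119 on the reverse strand. The mt-Nd4l gene (ENSMUSG00000065947) lies at chrM:9877-10173 on the forward strand and its copy Gm10222 at chr1:24612407-24612700 on the reverse strand. The first 60 bases of each pair are shown 5′ to 3′, since they are the sequence that a read would have to tell apart, with capitals marking the only base that differed over the 345 compared bases of mt-Nd3 and Gm28438.
mt-Nd3: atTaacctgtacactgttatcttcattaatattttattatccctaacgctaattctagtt
Gm28438: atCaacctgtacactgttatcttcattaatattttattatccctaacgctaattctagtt
mt-Nd4l: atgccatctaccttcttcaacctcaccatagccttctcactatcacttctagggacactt
Gm10222: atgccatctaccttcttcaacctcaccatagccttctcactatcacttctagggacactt
Counted from the first base of mt-Nd3, the difference was T3C, at mtDNA position 9461. The mt-Nd4l and Gm10222 sequences were identical over all 294 compared bases. The sequences were the annotated reference transcripts, and the libraries' own bases were not analysed here.

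The other members shared less sequence with the nucleus. Of all 100-base windows, 97.6% in mt-Nd3 and 98.5% in mt-Nd4l occurred unchanged in another annotated transcript, against 60.8% in mt-Nd4 (chrM:10167-11544; copy Gm28439, identical over 876 bases) and 3.19% in mt-Nd2 (chrM:3914-4951; copy Gm13339, with 17 differences over 510 bases). No such window was found in mt-Nd1 (chrM:2751-3707), mt-Nd5 (chrM:11742-13565) or mt-Nd6 (chrM:13552-14070, reverse strand). With 50-base windows the share was 7.61% in mt-Nd5 (copy Gm4076) and 8.19% in mt-Nd2, and still 0% in mt-Nd1 and mt-Nd6. Copies outside annotated transcripts were not searched, and how reads with several equal placements were counted is not given in the sources used here, so values of mt-Nd3, mt-Nd4l and part of mt-Nd4 are uncertain in level, and those of mt-Nd2 and mt-Nd5 to a smaller extent.

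A pair of overlaps within mtDNA also bears on the values. The 3′ end of mt-Nd4l and the 5′ start of mt-Nd4 share the 7 bases in capitals at chrM:10144-10196 (forward strand), on the mRNA they share.
mt-Nd4l and mt-Nd4: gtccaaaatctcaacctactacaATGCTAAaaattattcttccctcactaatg
The 3′ ends of mt-Nd5 and mt-Nd6 meet on opposite strands and overlap by the 14 bases in capitals at chrM:13536-13581 (forward strand).
mt-Nd5 and mt-Nd6: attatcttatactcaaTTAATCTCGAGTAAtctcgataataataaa
A strand-specific protocol was not stated, so reads of mt-Nd6 and reads of RNA antisense to it cannot be told apart.

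By FPKM the members fell into 5 abundant genes and the pair mt-Nd3 and mt-Nd4l far below them. In the order of mean level, mt-Nd1 had 26184 FPKM over the 8 libraries, mt-Nd2 20530 FPKM, mt-Nd4 12626 FPKM, mt-Nd5 11480 FPKM, mt-Nd6 7325 FPKM, mt-Nd3 508 FPKM and mt-Nd4l 193 FPKM. Each gene was above the next in all 8 libraries, except that mt-Nd4 was above mt-Nd5 in 5 of 8, with ratios from 0.885 to 1.24, so those neighbours did not differ beyond their spread. The step from mt-Nd6 to mt-Nd3 was between 7.46-fold and 63.9-fold. FPKM divides by the full transcript length, which for mt-Nd3 is 348 bases and for mt-Nd4l 297 bases. As mt-Nd4l and mt-Nd4 stay on 1 shared mRNA, the gap between their FPKM is not read as a gap in mRNA level. The part of length and shared sequence in that gap was not tested.

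**Figure D1:**
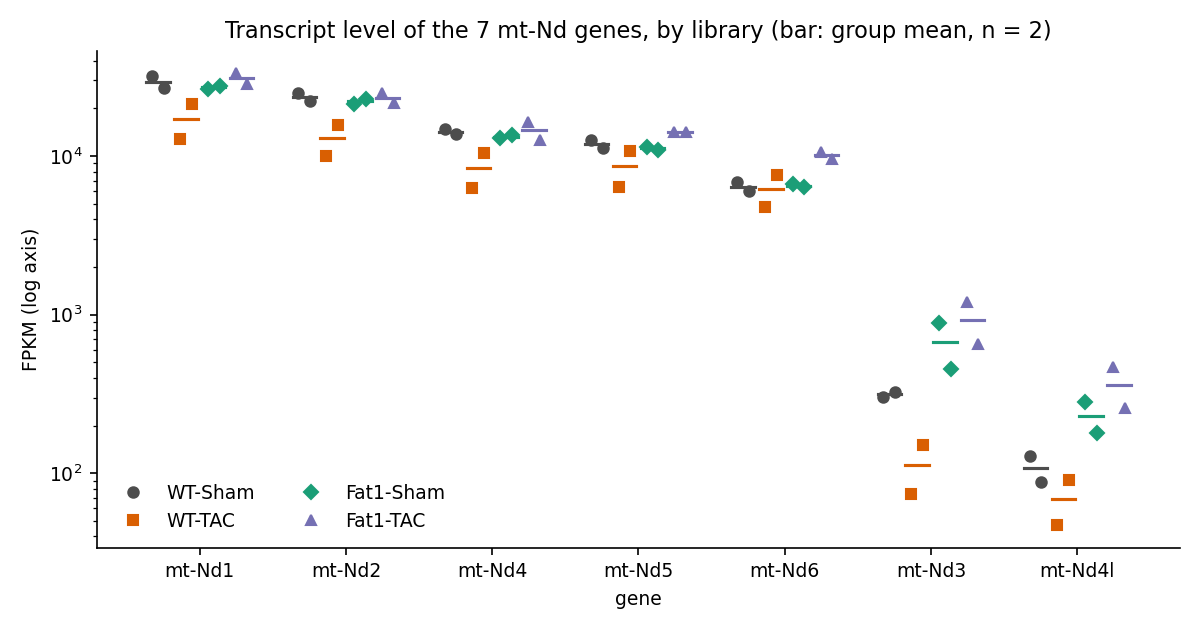
FPKM (log axis) of the 7 mt-Nd genes in each library, with 2 points and a bar at their mean for each group. The 5 genes on the left stayed between 4761 and 33282 FPKM, while mt-Nd3 and mt-Nd4l stayed between 47.0 and 1210 FPKM and were highest in the Fat1 groups. The TAC groups are those by which that pair was chosen.

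Low level went with shared sequence across the 13 mtDNA mRNAs, given here as a description. Over 90% of windows recurred elsewhere in 5 of them, namely mt-Nd3, mt-Nd4l, mt-Co2, mt-Co3 and mt-Atp6, whose means were 193 to 1591 FPKM. Of the other 8, all but mt-Atp8 had means of 7325 to 63309 FPKM. The exception, mt-Atp8, encodes a small ATP synthase subunit, is 204 bases long, shared no window and had 28.0 FPKM.

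**Figure D2:**
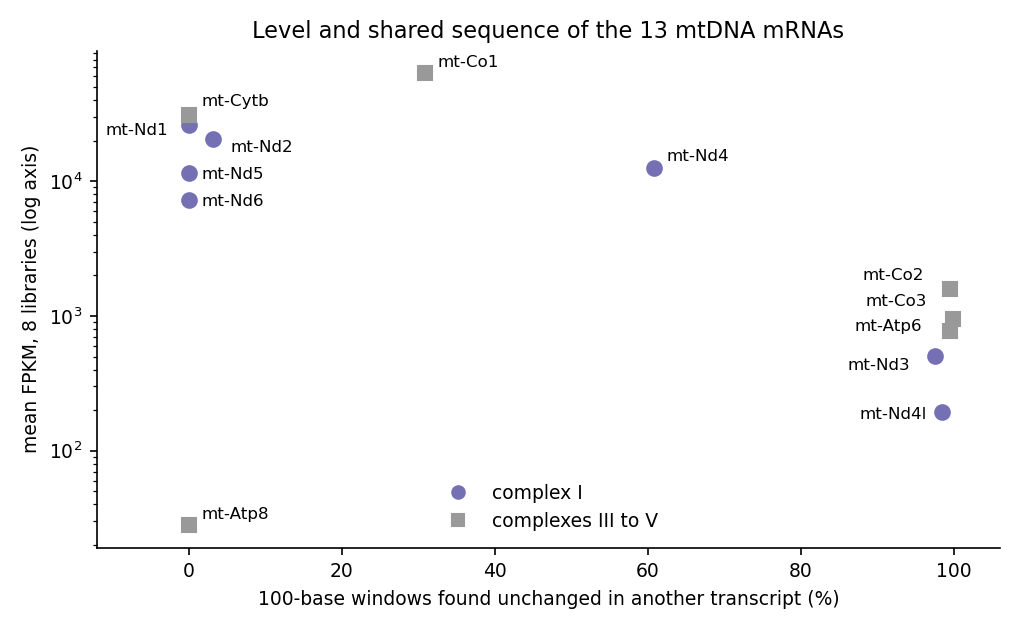
Mean FPKM over 8 libraries (log axis) against the percentage of 100-base windows found unchanged in another annotated transcript, for the 13 mtDNA mRNAs. Points at 97.6% or more lie at or below 1591 FPKM, and mt-Atp8 at 0% is the lowest of all.

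ND1, at the heel of the complex near the quinone site, had the most abundant transcript. The mt-Nd1 gene reached 32241 and 26788 FPKM in WT-Sham, 12793 and 21317 FPKM in WT-TAC, 26638 and 27760 FPKM in Fat1-Sham, and 33282 and 28655 FPKM in Fat1-TAC. Both WT-TAC values lay below all others. ND2, ND4 and ND5 are the antiporter-like subunits of the proton-pumping arm. The mt-Nd2 gene showed the same order, with 10086 and 15798 FPKM in WT-TAC and 21298 to 25164 FPKM in the other 6 libraries. For mt-Nd4 the WT-TAC values were 6275 and 10483 FPKM, below the 12664 to 16450 FPKM of the others. The mt-Nd5 gene had 6394 and 10829 FPKM in WT-TAC against 10936 to 14304 FPKM elsewhere, so that WT-TAC2 came close to Fat1-Sham2.

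ND6 helps to couple the quinone site to the proton channels and is the only protein encoded on the light strand of mtDNA. The mt-Nd6 gene had 6861 and 5989 FPKM in WT-Sham, 4761 and 7641 FPKM in WT-TAC, 6642 and 6377 FPKM in Fat1-Sham, and 10697 and 9634 FPKM in Fat1-TAC. Here the WT-TAC values lay on both sides of the sham values, and Fat1-TAC was above all other libraries.

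ND3 and ND4L are the smallest of the mtDNA-encoded subunits, and ND3 carries a loop near the quinone site that moves when the enzyme switches between its active and resting forms. The mt-Nd3 gene had 303 and 325 FPKM in WT-Sham, 74.5 and 150 FPKM in WT-TAC, 891 and 456 FPKM in Fat1-Sham, and 1210 and 652 FPKM in Fat1-TAC. The 4 Fat1 libraries were above the 4 WT libraries, with wide spread inside each Fat1 group. The mt-Nd4l gene had 128 and 88.2 FPKM in WT-Sham, 47.0 and 91.3 FPKM in WT-TAC, 283 and 178 FPKM in Fat1-Sham, and 468 and 257 FPKM in Fat1-TAC. Again no WT library reached a Fat1 library. The TAC libraries in both orders are those by which the pair was chosen, so only the order of the sham libraries is free of that choice.

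These low FPKM values still rested on many fragments. The mt-Nd3 gene took between 514 fragments in WT-TAC1 and 7867 in Fat1-TAC1, and mt-Nd4l between 277 and 2598 in the same libraries.

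All mtDNA genes together took 27.5% and 22.8% of fragments in WT-Sham, 11.7% and 19.3% in WT-TAC, 23.8% and 23.5% in Fat1-Sham, and 27.6% and 23.9% in Fat1-TAC. The 7 members took from 4.55% in WT-TAC1 to 11.2% in Fat1-TAC1. Within the members' fragments, mt-Nd3 and mt-Nd4l together made up 0.0876% to 0.153% in the WT libraries and 0.229% to 0.499% in the Fat1 libraries. These ranges include the TAC libraries that chose the pair.

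The first tested comparison asked how the transgene related to these genes without pressure overload. In Fat1-Sham against WT-Sham, mt-Nd3 was at 674 ± 307 FPKM (SD, n = 2) against 314 ± 15.5 FPKM (SD, n = 2), and mt-Nd4l at 231 ± 74.1 FPKM (SD, n = 2) against 108 ± 27.9 FPKM (SD, n = 2). On the log2(FPKM + 1) scale the differences were 1.02 (SE 0.46) for mt-Nd3 and 1.08 (SE 0.42) for mt-Nd4l, while the other 5 lay between -0.11 and 0.02. None of the 7 passed a limma fit over 14442 genes at a Benjamini-Hochberg adjusted p under 0.1 with a 1.5-fold change (both adjusted p = 1), and neither did any gene at all (0%). With no adjustment (p under 0.05 and the same fold), 1 member was higher, mt-Nd4l, against a background of 0.201% of genes. Neither voom on recovered fragments nor an ordinary linear model per gene called a member. Blood transcripts differed between the same groups, since the 4 blood markers, led by Hbb-bs, summed to 10436 and 9559 FPKM in WT-Sham and to 6031 and 4672 FPKM in Fat1-Sham, with log2 differences of -0.93 to -0.79. None of the 4 passed the limma adjustment, and all 4 were lower at an unadjusted p under 0.05 with a 1.5-fold change, as were 100 of the 14442 genes. The 5 fibroblast markers, led by Dcn, summed to 592 and 933 FPKM in WT-Sham and to 576 and 528 FPKM in Fat1-Sham, with a median log2 difference of -0.44 and none called. The part of these cells in the differences of mt-Nd3 and mt-Nd4l was not tested.

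The ratio within a library removes the mtDNA share of that library. Relative to the mean log2 FPKM of the other 5 members, mt-Nd3 stood at -5.72 and -5.43 in WT-Sham and at -3.99 and -4.97 in Fat1-Sham, a difference of 1.10 (SE 0.51), or 2.14-fold. For mt-Nd4l the log2 ratios were -6.97 and -7.32 in WT-Sham and -5.64 and -6.33 in Fat1-Sham, a difference of 1.16 (SE 0.39), or 2.23-fold. The sham groups did not overlap for either gene, but the two-sided exact permutation test of 2 against 2 libraries gave p = 0.333 for each, the smallest it allows. Leaving out Fat1-Sham1 reduced the difference of mt-Nd3 from 1.10 to 0.60.

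The Fat1-Sham1 library had atrial transcripts at the level of the WT libraries and the higher mt-Nd3 and mt-Nd4l ratios of its group. Fat1-Sham2, with atrial markers at 25.8 FPKM, was also above both WT-Sham libraries in both ratios. High atrial transcripts were found in all WT libraries and in Fat1-Sham1, so atrial content went largely with genotype. Its part in the ratios was not tested.

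In the TAC groups the log2 ratios of mt-Nd3 were -6.66 and -6.37 in WT-TAC and -3.92 and -4.63 in Fat1-TAC. Those of mt-Nd4l were -7.33 and -7.08 in WT-TAC and -5.29 and -5.97 in Fat1-TAC. These are the libraries on which the pair was chosen, so the gap is not tested. In the limma fit the difference between Fat1-TAC and WT-TAC was 3.06 (SE 0.46) for mt-Nd3 and 2.38 (SE 0.42) for mt-Nd4l, values that belong to the choice of the pair. By the limma rule 2 members were called, where 1.43% of all genes were in either direction, and nothing is read from that count, which was 0 with quantile or median-of-ratios scaling, an ordinary linear model or the replicate block. The other 5 differed by 0.75 for mt-Nd6 to 0.90 for mt-Nd1, and by 0.40 for mt-Nd5 to 0.56 for mt-Nd2 without WT-TAC1. The signs of mt-Nd5 and mt-Nd6 turned with scaling to the 13 mtDNA mRNAs and with quantile normalization. All 10 cardiomyocyte markers were also above 0 in this contrast, with a median of 0.56 and none called.

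**Figure D3:**
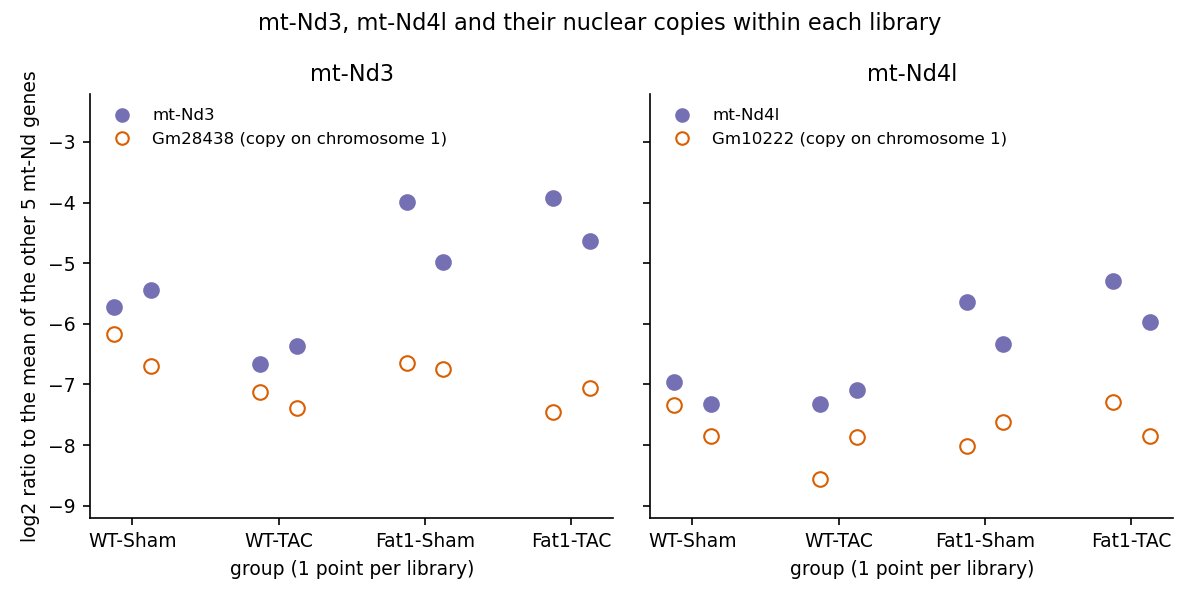
Log2 ratio of mt-Nd3 and mt-Nd4l (filled) and of their chromosome 1 copies (open) to the mean log2 FPKM of the other 5 mt-Nd genes, with 1 point per library in 4 groups. The filled points of all Fat1 libraries lie above those of all WT libraries, and the open points of Gm28438 and Gm10222 overlap between genotypes. The TAC libraries are those by which mt-Nd3 and mt-Nd4l were chosen.

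Over all 8 libraries the nuclear copies did not show the same separation. Gm28438 had 76.8 and 46.9 fragments per 1000000 mapped fragments in WT-Sham, 18.7 and 25.5 in WT-TAC, 48.7 and 46.3 in Fat1-Sham, and 36.2 and 41.6 in Fat1-TAC. Gm10222 had 28.9 and 17.8 fragments per 1000000 mapped fragments in WT-Sham, 5.90 and 15.6 in WT-TAC, 16.03 and 21.3 in Fat1-Sham, and 34.4 and 20.4 in Fat1-TAC. For both copies the genotypes overlapped.

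The share assigned to the mitochondrial gene rather than to its copy was higher in every Fat1 library than in every WT library. Of fragments on mt-Nd3 or Gm28438, mt-Nd3 took 57.9% (95% Wilson interval 55.9 to 59.8) and 70.7% (69.1 to 72.2) in WT-Sham, and 86.4% (85.6 to 87.2) and 77.4% (76.1 to 78.7) in Fat1-Sham. It took 58.1% and 67.2% in WT-TAC and 92.1% and 84.5% in Fat1-TAC. Intervals cover counting error only. Of fragments on mt-Nd4l or Gm10222, mt-Nd4l took 56.8% and 59.5% in WT-Sham, 70.3% and 63.4% in WT-TAC, 84.0% and 71.3% in Fat1-Sham, and 80.2% and 78.8% in Fat1-TAC. The nearest libraries of the 2 genotypes for mt-Nd4l, WT-TAC1 and Fat1-Sham2, had overlapping intervals of 65.6 to 74.6 and 68.9 to 73.6, so their order was within counting error. The exact permutation test in the sham libraries gave its smallest possible p = 0.333 for both genes, and the TAC libraries, used to choose the pair, were not tested.

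Summing a member with its copy narrowed the gap in counted fragments without closing it. The fragments of mt-Nd3 and Gm28438 together came to 182 and 160.0 per 1000000 mapped fragments in WT-Sham, 44.6 and 77.7 in WT-TAC, 359 and 205 in Fat1-Sham, and 457 and 269 in Fat1-TAC. Those of mt-Nd4l and Gm10222 together came to 66.8 and 44.0 in WT-Sham, 19.9 and 42.8 in WT-TAC, 100.1 and 74.3 in Fat1-Sham, and 173 and 96.7 in Fat1-TAC. All Fat1 sums were above all WT sums, where the TAC libraries are those by which the pair was chosen. With all 4 copies summed into their members, the sham difference in log2 ratio was 0.74 for both mt-Nd3 and mt-Nd4l. Reads with several equal placements, if left out of both genes, are missing from these sums too. In WT-TAC1 mt-Nd4l and Gm10222 together held 394 fragments, against 171466 on mt-Nd4, which is longer and shares the mRNA of mt-Nd4l. In Fat1-TAC1 they held 3241 against 423502. How far read assignment bears on the gap was not tested.

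For pressure overload in wild-type hearts all 7 estimates were below 0, but none passed the test. In WT-TAC against WT-Sham the log2 differences were -1.56 (SE 0.46) for mt-Nd3, -0.91 (SE 0.41) for mt-Nd2, -0.83 (SE 0.45) for mt-Nd1, -0.82 (SE 0.38) for mt-Nd4, -0.69 (SE 0.42) for mt-Nd4l, -0.51 (SE 0.37) for mt-Nd5 and -0.09 (SE 0.32) for mt-Nd6. Scaling to the 13 mtDNA mRNAs turned the sign for mt-Nd4l, mt-Nd5 and mt-Nd6, and quantile normalization did so for mt-Nd5 and mt-Nd6. The same scalings moved mt-Nd1 to -0.0965 and 0, mt-Nd2 to -0.17 and 0, and mt-Nd4 to -0.0823 and -0.20. Under mtDNA scaling mt-Nd6 was called higher at 0.65 (limma adjusted p = 0.0099), and mt-Nd3 was at -0.83. That scaling called 9753 of the 14442 genes. On the FPKM as deposited none of the 7 was called by limma, where 0.935% of all genes were. Of the other 5 members, none was lower at an unadjusted p under 0.05 with a 1.5-fold change, against 1.11% of genes, and voom called none of the 7. The median of all genes was 0.39 in this contrast. This contrast shares both WT-TAC libraries with the one used to choose mt-Nd3 and mt-Nd4l, so for that pair it is a description.

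The outcome rested on which WT-TAC library was kept. Without WT-TAC2 the mt-Nd1 difference was -1.20 and 6 members were called, all but mt-Nd6, but so were 7408 of the 14442 genes (911 of them lower), with the lone WT-TAC1 assumed to vary like the other groups. Without WT-TAC1, the library with thymocyte and skeletal muscle transcripts, the mt-Nd1 difference was -0.46, that of mt-Nd3 was -1.06, that of mt-Nd4l -0.22 and that of mt-Nd5 -0.13, while mt-Nd6 turned to 0.25. In that fit 0 members were called by limma, beside 146 genes. The mt-Nd6 difference also turned, to 0.0102, without WT-Sham1.

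Of the 10 cardiomyocyte markers, 9 also had estimates below 0 in wild-type hearts after TAC, and Ttn, the giant sarcomeric spring protein, was at 0.24 (SE 0.34). None of the 10 was called, and they had a median log2 difference of -0.54 in WT-TAC against WT-Sham, and the 7 members a median of -0.82. The summed FPKM of the 7 members was 1.59 and 1.43 times that of the cardiomyocyte markers in WT-Sham, 1.45 and 1.30 times in WT-TAC, 1.38 and 1.22 times in Fat1-Sham, and 1.72 and 1.45 times in Fat1-TAC. On that scale WT-TAC overlapped WT-Sham. In such bulk samples, fewer cells of a type and less RNA per cell cannot be told apart.

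In fat-1 hearts all 7 estimates for TAC were above 0, and none passed the test. The log2 differences of Fat1-TAC against Fat1-Sham ran from 0.07 (SE 0.41) for mt-Nd2 to 0.64 (SE 0.32) for mt-Nd6, with 0.48 (SE 0.46) for mt-Nd3 and 0.62 (SE 0.42) for mt-Nd4l. Scaling to the 13 mtDNA mRNAs turned the sign for mt-Nd2 and mt-Nd4, and quantile normalization for mt-Nd4. None of the 7 was called by limma (0.00692% of all genes were) or by voom, and 0 were higher at an unadjusted p under 0.05 with a 1.5-fold change, against 1.33% of genes. Without Fat1-TAC1 the differences of mt-Nd2 and mt-Nd4 turned to -0.0242 and -0.0664, and that of mt-Nd3 ran from -0.0038 without Fat1-Sham2 to 0.96 without Fat1-Sham1. This contrast shares both Fat1-TAC libraries with the one that chose mt-Nd3 and mt-Nd4l, so for that pair it is a description.

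Whether TAC acted differently on the members by genotype was fitted as an interaction. It contains the Fat1-TAC and WT-TAC values by which mt-Nd3 and mt-Nd4l were chosen, so for that pair it is a description. It was 2.04 (SE 0.65) for mt-Nd3, 1.31 (SE 0.60) for mt-Nd4l and 0.73 to 1.02 for the other 5, and the adjusted p from limma was 0.495 for each of those 5. No member was called, against 0.0692% of all genes, and 0 of those 5 were higher at an unadjusted p under 0.05 with a 1.5-fold change, against 0.609% of genes. Without WT-TAC2 all 7 were called, together with 6679 of the 14442 genes, and without WT-TAC1 0 were, beside 71 genes. Scaling to the 13 mtDNA mRNAs turned the sign for mt-Nd5 and mt-Nd6, and quantile normalization for mt-Nd6.

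**Figure D4:**
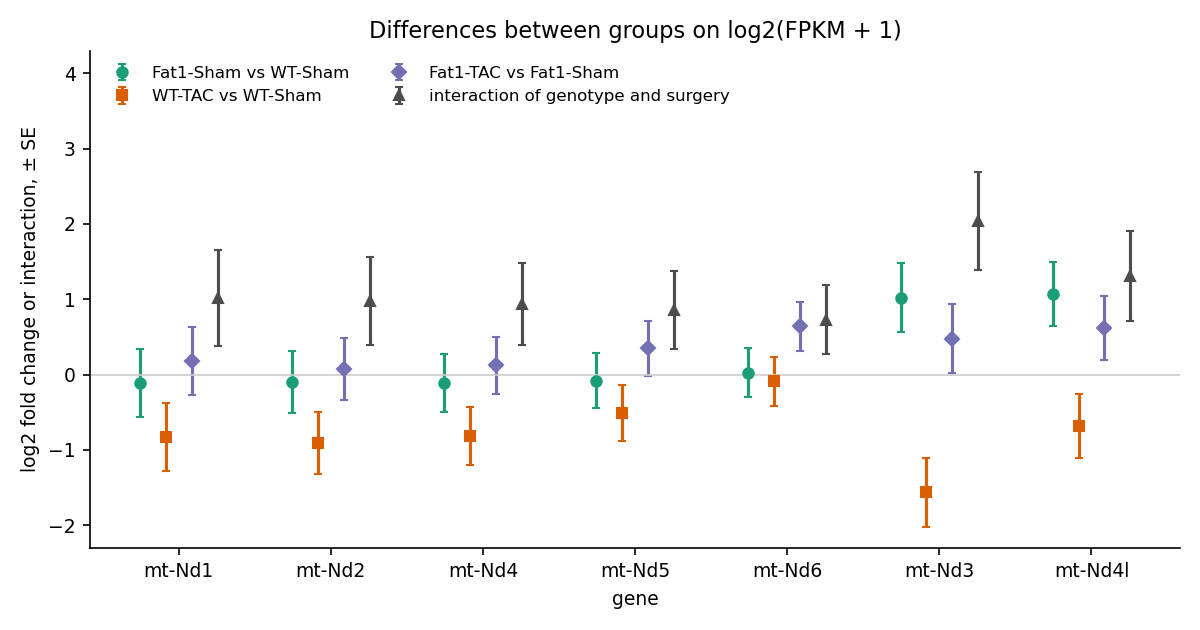
Differences between groups on the log2(FPKM + 1) scale for the 7 mt-Nd genes, with bars for the standard error of the limma fit over 8 libraries. Sham differences of the 5 genes on the left lie between -0.11 and 0.02, and those of mt-Nd3 and mt-Nd4l are 1.02 and 1.08.

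Within the 5 abundant members, mt-Nd6 was higher relative to the rest in TAC than in sham libraries of both genotypes. This ratio was singled out after its values were seen, so it is given as a description with no test. Its log2 ratio to the mean of mt-Nd1, mt-Nd2, mt-Nd4 and mt-Nd5 was -1.52 and -1.54 in WT-Sham, -1.36 and -1.46 in Fat1-Sham, -0.83 and -0.87 in WT-TAC, and -0.97 and -0.93 in Fat1-TAC. The 4 TAC libraries were above the 4 sham libraries, by 0.57 on average or 1.48-fold, with no overlap. The shift was 0.68 in wild-type and 0.46 in fat-1 hearts, and the difference between them was not tested. Against mt-Nd5 alone the shift was 0.36. In both Fat1-TAC libraries the airway and epithelial markers summed to at most 2.76 FPKM and the thymocyte markers to at most 1.17 FPKM, while the B and plasma cell markers were at 210.0 FPKM in Fat1-TAC2. In FPKM itself the WT-TAC values of mt-Nd6 lay on both sides of WT-Sham, so in wild-type hearts the shift is relative to the heavy-strand members. In fat-1 hearts mt-Nd6 was also higher in FPKM, though not called. It was at 10697 and 9634 FPKM in Fat1-TAC against 6642 and 6377 FPKM in Fat1-Sham.

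The heavy-strand members were compared in the same way, 5 ratios in all, likewise chosen after the values were seen and not independent, since each is in the reference of the others. The mt-Nd2 ratio to the other 4 differed by -0.30 between TAC and sham libraries, with -0.34 in wild-type and -0.25 in fat-1 hearts. That of mt-Nd4 differed by -0.21 and that of mt-Nd1 by -0.18, and for these 3 genes the surgeries did not overlap. With mt-Nd6 left out of the reference the differences were -0.07 for mt-Nd4, -0.04 for mt-Nd1 and -0.17 for mt-Nd2. The mt-Nd5 ratio differed by 0.12 with overlapping groups, and by 0.28 with no overlap when mt-Nd6 was left out of the reference.

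**Figure D5:**
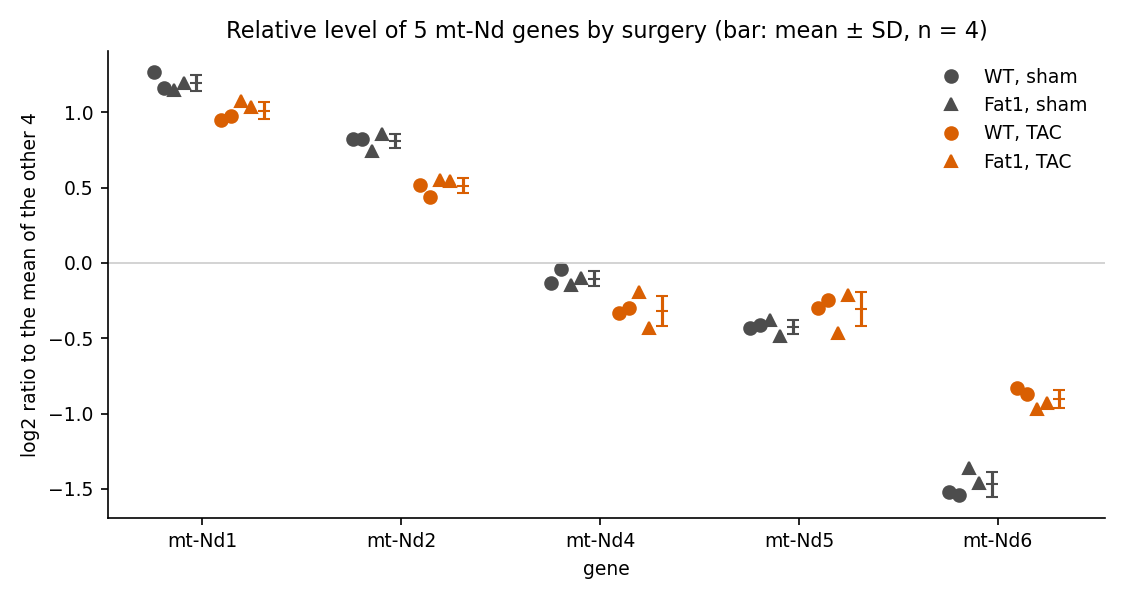
Log2 ratio of each of 5 mt-Nd genes to the mean log2 FPKM of the other 4, by surgery, with circles for WT and triangles for Fat1 libraries and bars for the mean and SD of 4. For mt-Nd6 the TAC points lie between -0.97 and -0.83 and the sham points between -1.54 and -1.36.

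The rest of the mtDNA was measured beside the members. Of the 6 mRNAs for complexes III to V, none was called in any of the 5 comparisons; in WT-TAC against WT-Sham 5 had estimates below 0, with mt-Co2 at -1.08 (SE 0.58) and mt-Atp8 as the exception at 0.30 (SE 0.28). In Fat1-TAC against WT-TAC all 6 were above 0, with a median of 1.44, mt-Co2 at 1.94 (SE 0.58), mt-Atp6 at 1.79 (SE 0.55) and mt-Co3 at 1.75 (SE 0.54). The library Fat1-TAC1 carried much of this, at 3795, 2329 and 2837 FPKM for mt-Co2, mt-Atp6 and mt-Co3 against 1354, 660.4 and 817 FPKM in Fat1-TAC2. The mt-Atp8 gene, which shared no window, was at 1.13 (SE 0.28) in that contrast. The mt-Atp8 gene had 21.2 and 14.5 FPKM in Fat1-Sham and 52.7 and 50.5 FPKM in Fat1-TAC, a log2 difference of 1.501 (SE 0.28) that did not pass the limma adjustment (adjusted p = 1). The ribosomal RNAs mt-Rnr1 and mt-Rnr2 were low at 37.3 to 157 FPKM, and neither was called. They were at -0.89 (SE 0.44) and -0.79 (SE 0.39) in Fat1-TAC against Fat1-Sham, where the members and the 6 other mRNAs had estimates above 0, and at -0.03 and 0.07 in Fat1-TAC against WT-TAC. Of 22 tRNA genes mt-Tp and mt-Ts1 were listed. Ratios of mt-Co2 to the 5 abundant members were -3.62 and -3.56 in WT-Sham, -4.35 and -3.73 in WT-TAC, -2.63 and -3.24 in Fat1-Sham, and -2.27 and -3.57 in Fat1-TAC, so that the genotypes overlapped over all 8 libraries. In the sham libraries alone they did not, with a difference of 0.65 (two-sided exact permutation test of 2 against 2, p = 0.333, the smallest it allows).

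Genes with a pattern most like the members were sought by the SD, over 8 libraries, of the log2 ratio, among 9433 genes with a mean of at least 5 FPKM. For mt-Nd3 the nearest were mt-Co2 (SD 0.51), mt-Atp6 (SD 0.82) and mt-Co3 (SD 0.83), each with over 90% of windows shared, and its SD against mt-Nd4l was 0.42. For mt-Nd4l they were mt-Co2 (SD 0.39), Gm43535 (SD 0.57) and mt-Atp6 (SD 0.59). Gm43535 rested on only 10 to 27 fragments a library, at 3.08 to 9.07 FPKM. The mean of the other 5 varied least against nuclear genes, namely Lrrc39, a sarcomeric M-band protein (SD 0.052), Cox7b, a complex IV subunit (SD 0.056), and S100a1, a cardiac calcium-binding protein (SD 0.057). Against that mean the SD was 1.02 for mt-Nd3 and 0.79 for mt-Nd4l.

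No nuclear complex I gene passed the limma test in any of the 5 comparisons. The 7 nuclear core subunits form the arm that binds NADH and carries electrons over iron-sulfur clusters; 6 of them were tested. Their median log2 difference was 0.05 for the transgene in sham hearts, -0.46 for TAC in wild-type hearts and -0.01 for TAC in fat-1 hearts. In Fat1-TAC against WT-TAC it was 0.47, with all 6 above 0. The summed FPKM of the 7 was 0.0633 and 0.0579 times that of the cardiomyocyte markers in WT-Sham and 0.0720 and 0.0635 times in WT-TAC. On that scale WT-TAC did not lie below WT-Sham, and WT-TAC2 was close to WT-Sham1. Among them, Ndufs8 was at -0.53 (SE 0.19) in WT-TAC against WT-Sham, Ndufs7 at -0.51 and Ndufv2 at -0.48. Ndufs3, used by every respiring cell, was listed at 0 in 6 libraries and at 0.0675 and 0.0798 FPKM in WT-Sham2 and WT-TAC2, so its value may be a failed estimate.

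Of 29 nuclear accessory subunits, 10 were lower in WT-TAC against WT-Sham at an unadjusted p under 0.05 with a 1.5-fold change, against 1.11% of genes, and none passed the limma adjustment. Ndufb2 was the only 1 of the 29 with an estimate above 0, at 0.49 (SE 0.22). Their median there was -0.49, beside 0.39 for all genes and -0.54 for the 10 cardiomyocyte markers. Their summed FPKM was 11922 and 10426 in WT-Sham, 6111 in WT-TAC1 and 9174 in WT-TAC2. The part of cell content in this difference was not tested. The furthest were Ndufa3 at -0.84 (SE 0.26), Ndufa5 at -0.83 (SE 0.24) and Ndufc1 at -0.79 (SE 0.23). In Fat1-Sham against WT-Sham their median was -0.04, close to the -0.01 of all genes. In Fat1-TAC against WT-TAC it was 0.46, with 28 of the 29 above 0. The median there was -0.40 for all genes and 0.56 for the cardiomyocyte markers.

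Of the 18 assembly factors tested, which build the complex without staying in it, 0 were called, with a median of -0.20 in WT-TAC against WT-Sham. Ndufaf1, which helps to assemble the membrane arm, was at -0.50 (SE 0.19), Ndufaf6 at -0.46 and Tmem70 at -0.41. Of 31 genes for mitochondrial transcription and RNA processing, 0 were called, and the median was 0.12. The furthest were Angel2 at 0.78 (SE 0.25), Polg, the mtDNA polymerase, at 0.65 (SE 0.22), and its partner Polg2 at 0.64 (SE 0.29). Angel2 reached 35.8 FPKM in WT-TAC1 and 21.3 FPKM in WT-TAC2 against 14.7 to 18.4 FPKM in the other 6 libraries.

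Of the 4 copies, 2 were called lower in wild-type hearts after TAC, the only genes so called of 14442. Gm28438 was called lower in WT-TAC against WT-Sham at -1.44 (SE 0.26, limma adjusted p = 0.0899) and Gm13339 at -1.54 (SE 0.28, limma adjusted p = 0.0922). Gm28439 was at -1.19 (SE 0.31) and Gm10222 at -1.21 (SE 0.48), neither of which passed. No gene was called lower with a pseudocount of 0.1, a filter at a mean of 5 FPKM, median-of-ratios, quantile or nuclear scaling, voom, an ordinary linear model, the replicate block, or with any 1 sham library left out, so neither call held there. As their sequence is shared with abundant mtDNA transcripts, these values are uncertain.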

How the data were processed

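The authors deposited 1 table of FPKM values per gene for 8 libraries of heart RNA, made with a NEBNext Ultra library kit and paired Illumina sequencing. The submitters' processing notes name HISAT2, mm10 and GRCm38, and the counting program is not given in the sources used here. Blank lines were dropped (4), and 0 columns of other samples were present. Since FPKM values are, for all but 1 gene, whole multiples of what 1 fragment is worth, fragment counts per gene and library totals were recovered (tolerance 0.01 fragments). Counts were whole at the annotated transcript length for 9556 of the 25929 genes and at another whole length for 16372. Values were tested as log2(FPKM + 1) with limma 3.58.1 (R 4.3.3; lmFit, eBayes with trend) over genes at 1 FPKM or more in 2 libraries, after a check on simulated data, with calls at adjusted p under 0.1 and 1.5-fold. The p-values measure the spread between these libraries. Single ratios were tested by exact permutation in SciPy 1.17.1. Sequences came from GENCODE M21. The named genes were all members, other mtDNA genes, nuclear core subunits, the 3 furthest in WT-TAC against WT-Sham of each other list, the 3 most alike, the copies, and markers. The members and lists were chosen with earlier results of these data known. Alternatives covered pseudocount, filters, scaling, model, nuclear copies, the replicate block and each library left out. Values of some single nuclear subunits are not reported here.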

Additional observations from a re-analysis of the deposited data

How the results depend on the processing

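In the sham comparison of the genotypes, and after TAC in fat-1 hearts, 0 members were called under every alternative. In WT-TAC against WT-Sham the count was 2 (mt-Nd3 and mt-Nd6) with scaling to the 13 mtDNA mRNAs, where 9753 of all genes were called, and 0 to 6 with 1 library left out, against 0 in the other fits. The interaction count was 0 to 7 with 1 library left out. Both upper counts came without WT-TAC2, where 7408 and 6679 of all 14442 genes were called. In Fat1-TAC against WT-TAC, the contrast that chose the pair, the count of 2 became 1 with a pseudocount of 0.1, scaling to nuclear genes, limma-voom or members summed with their nuclear copies (the last chosen after seeing the data), 0 with a filter at a mean of 5 FPKM, the median of ratios, quantile normalization, only the groups compared, an ordinary linear model or the replicate block, and 0 to 7 with 1 library left out (7837 genes called without WT-TAC2). The cause was not tested. In contrasts with a TAC group nothing is read from calls of mt-Nd3 and mt-Nd4l, since those libraries chose the pair. Replicate numbers did not pair the samples (correlations of deviations -0.135 to 0.0236), and the replicate block changed no other call of a member. Over all genes it took the calls from 135 to 52 in WT-TAC against WT-Sham, where the lower calls of Gm28438 and Gm13339 were lost, from 206 to 52 in Fat1-TAC against WT-TAC and from 10 to 0 in the interaction.

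The sham differences in log2 ratio of mt-Nd3 and mt-Nd4l kept their direction under the alternatives run for them, namely a pseudocount of 1, other references within mtDNA, fragments in place of FPKM, members summed with their copies and each library left out. They were 0.60 to 1.59 for mt-Nd3 and 0.81 to 1.501 for mt-Nd4l with 1 library left out, and 0.74 for both when summed with their copies. With scaling to the 13 mtDNA mRNAs, which takes out most of what the abundant members share, log2 differences turned to 0.0391 for mt-Nd4l, 0.23 for mt-Nd5 and 0.65 for mt-Nd6 in WT-TAC against WT-Sham, to -0.0722 for mt-Nd2 and -0.0230 for mt-Nd4 in Fat1-TAC against Fat1-Sham, to -0.0280 for mt-Nd5 and -0.0522 for mt-Nd6 in Fat1-TAC against WT-TAC, and to -0.0234 for mt-Nd5 and -0.15 for mt-Nd6 in the interaction. Quantile normalization gives genes of equal rank the same value in every library by construction. It turned mt-Nd5 to 0.15 and mt-Nd6 to 0.37 in WT-TAC against WT-Sham, and mt-Nd4 to -0.0034 in Fat1-TAC against Fat1-Sham. It also turned mt-Nd5 to -0.0474 and mt-Nd6 to -0.0758 in Fat1-TAC against WT-TAC, and mt-Nd6 to -0.0758 in the interaction. Scaling to nuclear genes turned mt-Nd6 to -0.0077 in the sham comparison.

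With 1 library left out, sham log2 differences ran from -0.25 to 0.0217 for mt-Nd1, -0.17 to 0.0020 for mt-Nd5 and -0.0762 to 0.12 for mt-Nd6, those of mt-Nd6 in WT-TAC against WT-Sham from -0.43 to 0.25, and those in Fat1-TAC against Fat1-Sham from -0.0242 to 0.17 for mt-Nd2, -0.0038 to 0.96 for mt-Nd3 and -0.0664 to 0.31 for mt-Nd4. The TAC shift of the mt-Nd6 ratio ran from 0.55 to 0.61, and was 0.36 against mt-Nd5 alone.

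With 2 libraries a group, no exact test between single groups can go below 0.333. Members with nuclear copies hold reads whose origin the files do not resolve, libraries of the WT-TAC group differ in tissue content, and tissue and surgery cannot be told apart there.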
